A study of Mus musculus with 4 samples.

Results

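The comparison described here sets RNA from DKmix cells at day 50 against RNA from β-catenin-transduced LSK cells at day 3, gene by gene, as the log2 ratio of day 50 over day 3. Its members are all 18193 mouse genes read by a probe set with a single gene symbol, from 2 of the 4 arrays of the series. LSK cells are the fraction of mouse bone marrow that lacks lineage markers and carries Sca-1 and c-kit, which is rich in blood stem and progenitor cells. For the day 3 array these cells had received β-catenin by retrovirus 3 days before. The submitters give the name DKmix to β-catenin-transduced LSK cells that were kept in culture, here for 50 days. An eGFP retrovirus array at day 3 and a DKmix array at day 300 are printed beside the results. All 4 samples were grown in IMDM with foetal calf serum and 4 cytokines, SCF, IL-11, Flt3 and IL-3, and total RNA was labelled with biotin as cRNA. The form of β-catenin, the vector's promoter, the mouse strain and age, and the number of animals or cultures behind each array are not given in the sources used here. Each side held 1 array, so no difference below has a replicate check, no test was run and no p-value is given. The study asked which genes, and which transcription factors above all, β-catenin acts through when blood stem cells become immortal in culture.

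β-Catenin is the messenger of canonical Wnt signalling. A destruction complex built on Axin and APC marks it for the proteasome, and when that complex is held off it binds TCF/LEF factors and switches on their target genes. Mast cells are tissue-resident cells of the blood lineage that grow from bone marrow progenitors under IL-3 and SCF. They carry KIT, the SCF receptor, and the high-affinity IgE receptor, and they store proteases, heparin and amines in granules that are released when the receptor is cross-linked. Neutrophils, monocytes and dendritic cells grow from the same marrow progenitors.

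Intensities were deposited as MAS5 signals scaled to the same trimmed mean on each array, so every ratio is relative to the average of its array. A gene was read by its brightest probe set, values under 48.3 (the median of all deposited values) were set to that floor, and a gene was measured if it exceeded the floor on at least 1 of the 2 arrays. Where 1 of the arrays was under the floor the ratio bounds the difference from below, written "at least". Higher and lower mean at least 2-fold. Of 13742 measured genes, 2208 were higher at day 50, which is 16.1%, and 2162 were lower, which is 15.7%. The counts of each gene group below are to be read against those shares. The median log2 ratio of all measured genes was 0.07. With the arrays scaled on the spiked hybridisation controls instead, that median moved to −0.70, 4.2% of genes were higher and 37.8% were lower. The direction of a group is therefore given relative to the array average, with its median on the hybridisation-control scale beside it where the sign turned.

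The arrays differed in the signal along the control transcripts. The ratio of the 3′ to the 5′ Gapdh probe set was 1.18 at β-catenin day 3, 4.14 at eGFP day 3, 4.96 at DKmix day 50 and 1.06 at DKmix day 300. For β-actin it was 1.32, 1.83, 3.41 and 1.20 in the same order. The 5′ end of Gapdh had a log2 ratio of −3.38 between day 50 and β-catenin day 3, the middle −2.72 and the 3′ end −1.31. The corresponding β-actin values were −0.42, 0.23 and 0.95, so a transcript could lie on either side of 0 according to where its probes sat. For the transferrin receptor control the 3′ to 5′ ratio was 2.92, 2.29, 12.25 and 3.05. Its 3′ end had a log2 ratio of −2.07 and its middle −0.90, and its 5′ end was below the floor at day 50. All 3 ratios were highest at day 50, and the eGFP array was near it for Gapdh but not for the other controls. The part of this difference in any gene's ratio was not tested. For many groups the counts of day 50 against eGFP day 3 and of day 300 against β-catenin day 3 are given as well. Each such comparison shares an array with the main one and is not independent of it. Over all genes measured in each, 15.6% were higher and 15.0% lower at day 50 than at eGFP day 3, and 14.0% were higher and 14.4% lower at day 300 than at β-catenin day 3.

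**Figure D1:**
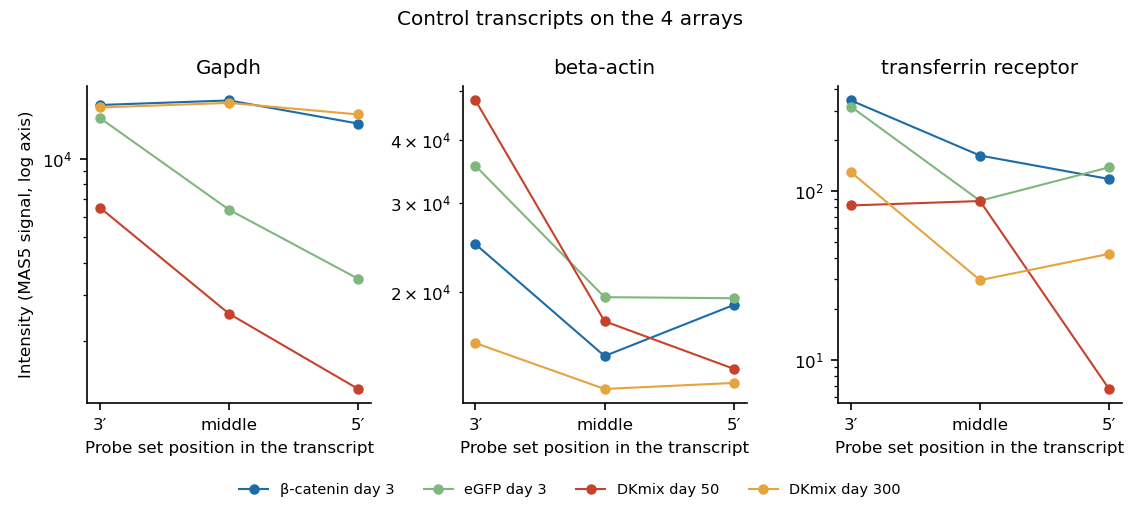
Intensity (MAS5 signal, log axis) of the 3′, middle and 5′ probe sets of 3 control transcripts, with a line for each of the 4 arrays. The Gapdh line falls from 6502.0 at the 3′ end to 1311.8 at the 5′ end at DKmix day 50 and stays between 13665.1 and 16762.9 at β-catenin day 3.

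Markers of the cell types that the cultures could hold were read first. Of 10 mast cell markers, 6 exceeded the floor at β-catenin day 3 with a summed intensity of 3744.3, and 8 did at DKmix day 50 with 171267.5. At eGFP day 3, 8 of the 10 exceeded the floor too, with a sum of 758.7, and at DKmix day 300, 8 did with 75839.0. Markers of other types were higher in sum at day 50 too. The 4 basophil markers went from 2018.9 to 31140.6, with 3 and then 4 above the floor. The 5 megakaryocyte markers went from 2148.2 to 7765.7 and the 5 LSK markers from 1128.9 to 5619.8. For megakaryocyte and for LSK markers the number above the floor went from 4 to 3. Fcer1a and Kit, counted as mast cell markers too, gave 28506.6 of the basophil sum and 3459.5 of the LSK sum at day 50. Itga2b made up most of the megakaryocyte sum, and Mcpt8, a basophil marker, was lower. Of 10 neutrophil markers, 8 exceeded the floor at β-catenin day 3 (sum 13190.1) and 3 at day 50 (sum 715.9). Of 9 macrophage and dendritic cell markers, 9 exceeded it at β-catenin day 3 (sum 21064.2) and 5 at day 50 (sum 560.9). The LSK label of the day 3 array could be checked on 5 of its 6 markers: Cd34 was at 804.1, Procr at 106.9, Slamf1 at 87.6, Kit at 82.9, and Flt3, at 47.4, was below the floor. Ly6a, the gene of Sca-1, was not analysed here. Cd3e, Cd3g, Cd79a, Kdr and Col3a1, defining genes of T cells, B cells, endothelium and stroma, were below the floor on all 4 arrays. Other markers of those types were low: at day 50, 2 of 3 B cell markers exceeded the floor with all 3 summing to 112.5, 0 of 3 T and NK cell markers did, and 3 of 6 stromal and endothelial markers did with a sum of 243.7. At eGFP day 3, 4 of those 6 exceeded it, with a sum of 455.9. In RNA from a whole culture, fewer cells of a type and less RNA per cell cannot be told apart, and this holds for every group below. The part of these marker differences in the other gene groups, those of antigen presentation, interferon and chemokines among them, was not tested.

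Among genes bright enough to rank (at least 193.2 on 1 of the 2 arrays), the 30 with the highest ratios were between 23.5-fold and 973-fold higher. Of these, 29 were also at least 2-fold above the eGFP day 3 array, the exception being Tesc, which encodes the calcium-binding protein tescalcin. Tesc gave 39.7 at β-catenin day 3, 3438.2 at eGFP day 3, 3097.2 at DKmix day 50 and 2563.8 at DKmix day 300. Against β-catenin day 3, 28 of the 30 were at least 2-fold higher at day 300 too. The exceptions were Mcpt2, a mucosal mast cell chymase, at 53.3, and Vwf, at 4.6. The 30 genes with the lowest ratios were between 21.0-fold and 174-fold lower, and all 30 were also lower than on the eGFP array. At day 300, 25 of them were at least 2-fold below β-catenin day 3. The other 5 (Igfbp4, Anxa2, Bex3, Ctsz and Hmgn1) were within 2-fold of it or above.

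**Figure D2:**
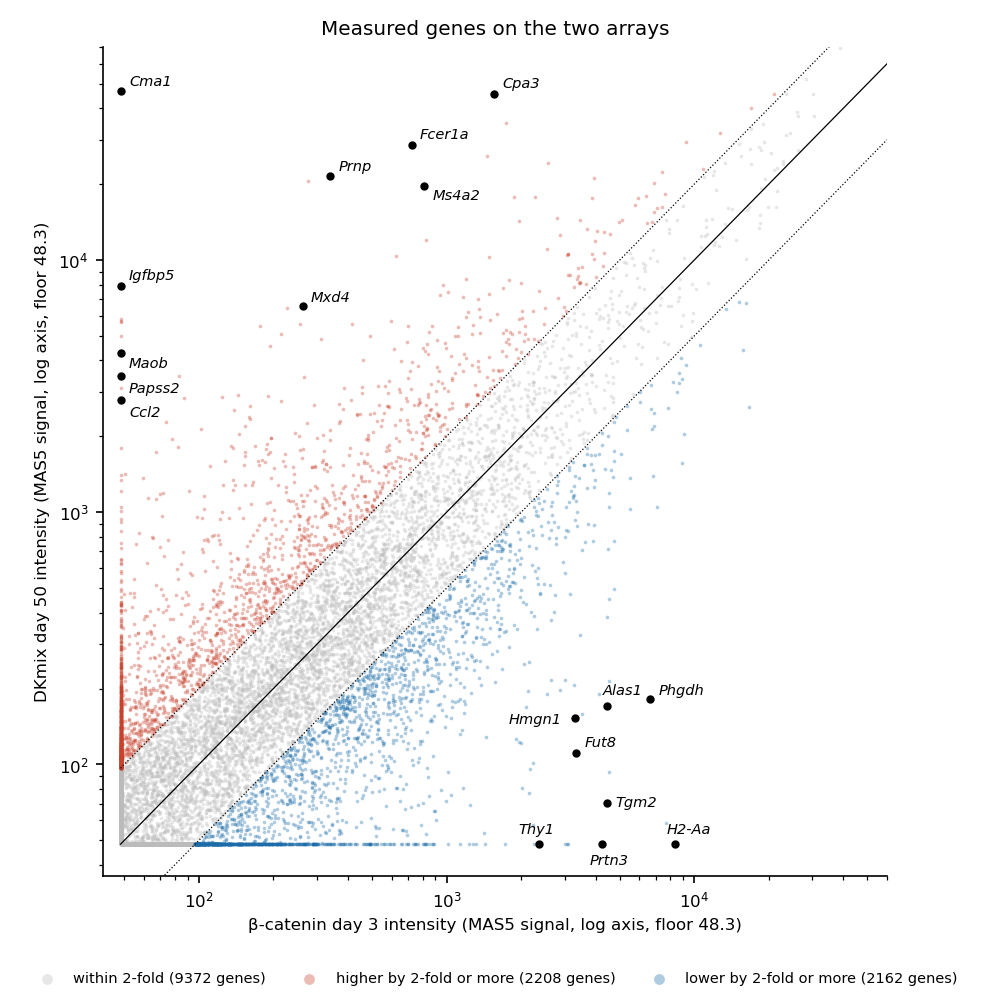
Each point is 1 of the 13742 measured genes, with its intensity at β-catenin day 3 on the x axis and at DKmix day 50 on the y axis (MAS5 signal, both axes log, values under 48.3 drawn at 48.3); the solid line marks equality and the dotted lines 2-fold. Cma1 and Igfbp5 stand at the floor on the x axis and high on the y axis, and H2-Aa, Prtn3 and Thy1 at the floor on the y axis.

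Mast cell granule proteases were the gene list with the highest median, at a log2 ratio of 3.74 over 12 measured members, with 9 higher and 3 lower. Cpa3, the mast cell carboxypeptidase that trims peptides left by the chymases, gave 1559.7 at β-catenin day 3, 134.7 at eGFP day 3, 45530.9 at DKmix day 50 and 15951 at DKmix day 300. It was 29.2-fold higher than at β-catenin day 3, and both DKmix arrays lay above both day 3 arrays. Tpsg1, a membrane-anchored tryptase, gave 8.4 at β-catenin day 3, 28.9 at eGFP day 3, 5747.6 at DKmix day 50 and 545.3 at DKmix day 300, below the floor on both day 3 arrays and at least 119-fold higher at day 50. Gzmb, a granzyme that mast cells share with cytotoxic lymphocytes, gave 1462.1 at β-catenin day 3, 25.4 at eGFP day 3, 25886.3 at DKmix day 50 and 897.7 at DKmix day 300. It was 17.7-fold higher at day 50, while at day 300 it was below the β-catenin day 3 value. Mcpt4, a chymase of connective tissue mast cells, was at 489.5 at day 50 and below the floor at β-catenin day 3 and day 300, and the eGFP array had 147.7. Ctsd and Ctsc, a lysosomal protease and the enzyme that activates granule serine proteases, were 3.01-fold higher and 2.22-fold higher. Tpsab1 and Mcpt1, the genes of another tryptase and of a mucosal chymase, stayed below the floor on both arrays.

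The list also held 3 proteases that were lower. Mcpt8, the basophil protease, gave 1095.2 at β-catenin day 3, 1022.7 at eGFP day 3, 370.4 at DKmix day 50 and 54.1 at DKmix day 300 and was 2.96-fold lower. Ctsg, cathepsin G of neutrophil and monocyte granules, gave 4449.1 at β-catenin day 3, 16275.2 at eGFP day 3, 384.9 at DKmix day 50 and 14.1 at DKmix day 300 and was 11.6-fold lower. Ctse was 14.0-fold lower by its brightest probe set, and its other one had a log2 ratio of 0.83. At day 300 the protease list had a median of 0.53, with 5 of 11 higher than at β-catenin day 3.

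Promoter sequence is shown for Cpa3 and for the genes of the IgE receptor's α and β chains, Fcer1a and Ms4a2, because these 3 mast cell genes were 29.2-fold higher, 39.4-fold higher and 24.4-fold higher at day 50, and because GATA factors are known regulators of mast cell genes. The 250 bases before the annotated start are from RefSeq on GRCm38.p6, written 5′ to 3′ along the gene, and capitals mark AGATAA or TGATAA on either strand (TTATCT and TTATCA are their reverse complements). No 2 matches overlapped.
Cpa3 (chr3:20242182-20242431, minus strand): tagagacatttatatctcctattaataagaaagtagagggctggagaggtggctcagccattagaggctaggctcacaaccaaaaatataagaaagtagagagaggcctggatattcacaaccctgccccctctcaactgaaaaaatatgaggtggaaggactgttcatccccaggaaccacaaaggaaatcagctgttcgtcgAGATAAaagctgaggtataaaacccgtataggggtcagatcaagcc
Ms4a2 (chr19:11623720-11623969, minus strand): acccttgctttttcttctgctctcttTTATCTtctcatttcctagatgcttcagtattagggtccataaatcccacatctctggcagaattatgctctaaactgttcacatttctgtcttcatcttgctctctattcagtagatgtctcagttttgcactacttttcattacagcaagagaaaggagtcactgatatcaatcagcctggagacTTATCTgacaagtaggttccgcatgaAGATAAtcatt
Fcer1a (chr1:173227230-173227479, minus strand): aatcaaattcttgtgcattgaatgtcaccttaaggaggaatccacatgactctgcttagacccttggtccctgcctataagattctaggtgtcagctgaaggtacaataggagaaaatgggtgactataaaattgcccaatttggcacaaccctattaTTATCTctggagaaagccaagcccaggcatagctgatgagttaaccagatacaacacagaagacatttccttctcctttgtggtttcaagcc
Cpa3 had 1 match, 46 bases before the start. Ms4a2 had 3, at 224, 37 and 11 bases, and Fcer1a had 1, at 92 bases. The window of Cma1, the gene with the largest ratio, held none. Over all 11058 measured genes with a promoter entry, 10.4% held such a hexamer, as did 10.4% of the genes that were higher and 10.3% of those that were lower. The letters were thus no more frequent in either class than among measured genes at large, and a match is not evidence of binding.

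Of 21 genes of the IgE receptor and its proximal signalling, 12 were higher and 4 lower, and the median was 1.12. Fcer1a gave 723.5 at β-catenin day 3, 64.4 at eGFP day 3, 28506.6 at DKmix day 50 and 15387.5 at DKmix day 300 and was 39.4-fold higher. Ms4a2 gave 810.6 at β-catenin day 3, 87.3 at eGFP day 3, 19762.7 at DKmix day 50 and 7152.7 at DKmix day 300 and was 24.4-fold higher. For both chains the eGFP array was lowest, β-catenin day 3 intermediate and the DKmix arrays highest. Fcer1g, the signalling chain that many Fc receptors share, went from 1606.2 to 6133.7, which is 3.82-fold higher. Downstream of the receptor, the adaptors Lat, Lat2 and Gab2 were 4.69-fold higher, 3.76-fold higher and 6.21-fold higher. Plcg1, a phospholipase that opens the calcium response, was 4.74-fold higher, and Prkcb, a protein kinase C, went from 256.8 to 5568, or 21.7-fold higher. Inpp5d, the inositol phosphatase SHIP that restrains mast cell activation, was 4.60-fold higher. Kinases of the pathway differed among themselves. Btk was 2.35-fold higher, Syk went from 685 to 511.6 and Prkcd from 1137.4 to 1140.7, the latter pair within 2-fold, and Tec was at least 17.6-fold lower. The phospholipase gene Plcg2 was 2.11-fold lower. Ptpn6, the phosphatase SHP-1, went from 1960.5 to 123.3 by its brightest probe set while the other had a log2 ratio of −0.3. On the hybridisation-control scale the list had 7 higher and 7 lower, with a median of 0.18. Day 300 had 13 of 20 higher and 3 lower than β-catenin day 3, and against eGFP day 3 the day 50 counts were 11 and 4.

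Other mast cell surface and membrane genes numbered 18, of which 11 were higher and 3 lower. Cd200r3, an activating receptor of mast cells and basophils, gave 153.9 at β-catenin day 3, 44.4 at eGFP day 3, 2194.6 at DKmix day 50 and 1535.9 at DKmix day 300 and was 14.3-fold higher. Cadm1, an adhesion molecule by which mast cells bind nerves and fibroblasts, was 10.9-fold higher by its brightest probe set, and all 4 of its probe sets lay between 3.4 and 4.0 on the log2 scale. P2rx7, an ATP-gated channel, was 31.1-fold higher, although 1 of its 3 probe sets had a log2 ratio of −0.3. Adora3 and Hrh4, receptors for adenosine and histamine, were at least 5.97-fold higher and at least 3.73-fold higher from values under the floor. Tnfrsf9 was 11-fold lower and Siglecf, a sialic acid receptor best known from eosinophils, was at least 2.53-fold lower. The eosinophil genes Epx and Il5ra were below the floor on all 4 arrays.

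Of 5 measured receptor genes for the cytokines in the medium, 3 were higher and none was lower, and the receptor of Flt3 ligand was not measured. Csf2rb2, the β chain that serves IL-3 alone in the mouse, gave 625.5 at β-catenin day 3, 562.2 at eGFP day 3, 10363 at DKmix day 50 and 3462.9 at DKmix day 300 and was 16.6-fold higher. Csf2rb, the common β chain, gave 2534.9 at β-catenin day 3, 2889 at eGFP day 3, 11030.1 at DKmix day 50 and 6128.9 at DKmix day 300 and was 4.35-fold higher. Both DKmix values exceeded both day 3 values for each of these chains. Il3ra, the IL-3 receptor's α chain, went from 119.5 to 208.8, and Il6st, which transmits the IL-11 signal, from 50.0 to 64.2, both within 2-fold.

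**Figure D3:**
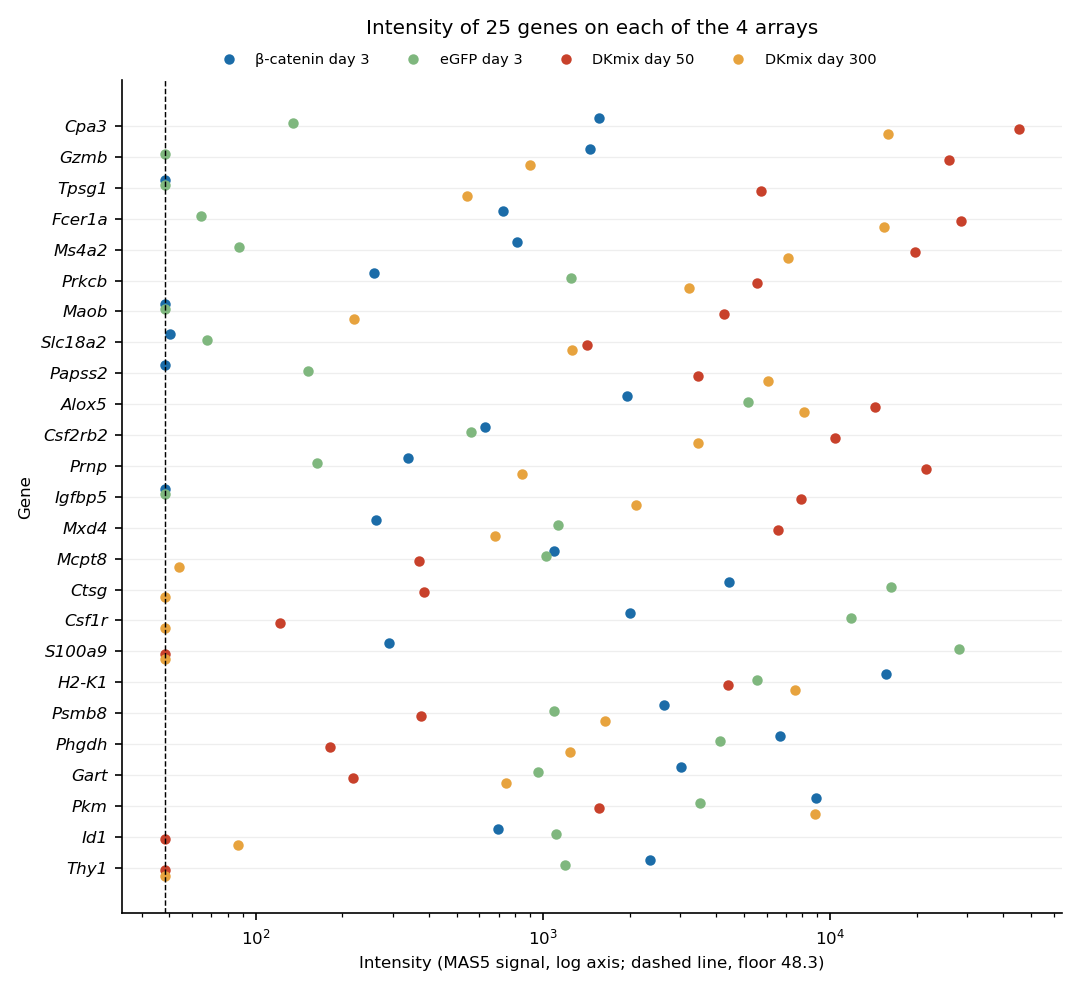
Intensity (MAS5 signal, log axis) of 25 named genes, with 1 point for each of the 4 arrays; values under the floor of 48.3 are drawn on the dashed line. Mast cell genes at the top have the 2 DKmix points to the right of most day 3 points, and Csf1r, S100a9 and Thy1 have them at or near the floor.

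Granule contents other than proteases were read as synthesis pathways. Of 18 genes of serglycin and heparin synthesis, 8 were higher and 2 lower, and the median was 0.70, which turned to −0.24 on the hybridisation-control scale. Sulfation steps were among the higher members. Papss2, which makes the sulfate donor, gave 9.5 at β-catenin day 3, 151.6 at eGFP day 3, 3459.1 at DKmix day 50 and 6094.1 at DKmix day 300 and was at least 71.6-fold higher. The 4 Papss2 probe sets had log2 ratios between 0.33 and 6.16. Ndst2, the N-sulfotransferase that mast cell heparin depends on, went from 161.6 to 2337.3, or 14.5-fold higher. Hs3st1 and Hs6st1, which add sulfate at the 3-O and 6-O positions, were 9.80-fold higher and 3.46-fold higher. Srgn, the serglycin core protein that carries heparin in the granule, was already at 9249.7 at day 3 and was 3.18-fold higher. Papss1, the other donor synthase, went from 253 to 127, and the chain-building Ext1 and Extl3 were at least 2.14-fold lower and at least 3.63-fold lower.

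Of 11 genes of amine synthesis and storage, 5 were higher and 3 lower. The higher ones were Tph1, of serotonin synthesis, its cofactor enzyme gene Gch1, Ddc, the vesicle transporter gene Slc18a2, and Maob, which degrades amines. Gch1 was 6.78-fold higher. Ddc gave 29.6 at β-catenin day 3, 42.8 at eGFP day 3, 844.1 at DKmix day 50 and 2455.6 at DKmix day 300 and was at least 17.5-fold higher. Slc18a2, which loads amines into granules, gave 50.3 at β-catenin day 3, 67.5 at eGFP day 3, 1418.9 at DKmix day 50 and 1258 at DKmix day 300 and was 28.2-fold higher. Ddc was under the floor on both day 3 arrays and Slc18a2 just above it. Maob gave 9.1 at β-catenin day 3, 5.9 at eGFP day 3, 4272.8 at DKmix day 50 and 219.6 at DKmix day 300 and was at least 88.5-fold higher. Its paralogue Maoa went the other way and was 2.02-fold lower. Hdc, the histamine-forming enzyme, was at least 4.84-fold lower at day 50 and reached 1514.3 at day 300. Slc6a4, the serotonin uptake transporter, was below the floor on both arrays.

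Leukotriene synthesis was higher in its first steps. Alox5 gave 1962.5 at β-catenin day 3, 5181.6 at eGFP day 3, 14269 at DKmix day 50 and 8085.3 at DKmix day 300 and was 7.27-fold higher, its activating protein gene Alox5ap was 6.97-fold higher and Ltc4s, the leukotriene C4 synthase, was 7.14-fold higher. For Alox5ap and Ltc4s the eGFP day 3 values, 6045.5 and 1875.2, were themselves above β-catenin day 3, so that against eGFP only Alox5 of the 3 was higher (2.75-fold higher). Hpgds, the prostaglandin D2 synthase of mast cells, was 3.56-fold higher. Ptgs2 went from 96.5 to 71.2. Over 12 measured genes of the pathway 5 were higher and 1 lower against β-catenin, and 2 and 2 against eGFP. The median of 0.71 was −0.03 on the hybridisation-control scale.

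The machinery of regulated secretion was mixed, with 17 of 44 Rab, SNARE and exocytosis genes higher, 4 lower, and a median of 0.41 that turned to −0.49 on the hybridisation-control scale. Sytl2, an effector that ties Rab27 to the plasma membrane, gave 4 at β-catenin day 3, 2.3 at eGFP day 3, 1045 at DKmix day 50 and 652.9 at DKmix day 300 and was at least 21.6-fold higher. Stx3, a syntaxin of the target membrane, was 6.73-fold higher, and its 4 probe sets had log2 ratios between 1.25 and 2.75. Rab38 and Unc13b, which act in the biogenesis and docking of secretory organelles, were 4.01-fold higher and 5.65-fold higher. Rab27b and Rab27a parted, at 32.8-fold higher and 254.6 to 147.9 respectively. Vamp8, the vesicle SNARE of mast cell degranulation, was 2.49-fold lower, its partner Stxbp2 was 2.40-fold lower and Lyst, which is mutated in a disease of giant granules, was 3.03-fold lower.

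Lysosomal genes had members in both directions. Of 42 measured, 12 were higher and 9 lower, and the median of 0.30 turned to −0.61 on the hybridisation-control scale. Ids, the sulfatase that starts the breakdown of heparan sulfate, was 10.9-fold higher, Smpd1 5.65-fold higher, Tpp1 5.32-fold higher and Npc2 3.41-fold higher. Among the lower members were 4 papain-type cathepsins of antigen-presenting cells and macrophages. Ctsz gave 4136.1 at β-catenin day 3, 782.5 at eGFP day 3, 190.4 at DKmix day 50 and 2789.3 at DKmix day 300 and was 21.7-fold lower. Ctss, which cuts the invariant chain of MHC class II, was at least 21.0-fold lower, Ctsl was at least 10.3-fold lower and Ctsh was 10.0-fold lower. Ctsc, of the same protease family, was higher as given above, and Arsb, a sulfatase like Ids, was at least 4.27-fold lower. At day 300 the lysosomal list had 18 higher and 2 lower against β-catenin day 3.
Autophagy genes were higher in 7 of 27 and lower in none, with a median of 0.56 that turned to −0.53 on the hybridisation-control scale. Sqstm1, the cargo receptor p62, gave 3471.9 at β-catenin day 3, 698.9 at eGFP day 3, 8144.7 at DKmix day 50 and 5175.5 at DKmix day 300 and was 2.35-fold higher.

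Transcription factors were the study's stated interest. Of 27 AP-1, EGR and related early-response genes, 12 were higher and 2 lower, and the median was 0.69, which turned to −0.08 on the hybridisation-control scale. Jun, an AP-1 subunit, gave 164.8 at β-catenin day 3, 45.6 at eGFP day 3, 1319.5 at DKmix day 50 and 776.2 at DKmix day 300 and was 8.01-fold higher. Egr1, an early growth response factor, gave 1689.8 at β-catenin day 3, 648.2 at eGFP day 3, 7744.5 at DKmix day 50 and 1904.3 at DKmix day 300 and was 4.58-fold higher. Fos gave 522.2 at β-catenin day 3, 440.5 at eGFP day 3, 2300.7 at DKmix day 50 and 45.8 at DKmix day 300 and was 4.41-fold higher, so that its day 300 value was under the floor while those of Jun and Egr1 were not. Fosl2 was 4.20-fold higher and Junb 2.30-fold higher. The lower members were phosphatases that switch off MAP kinases: Dusp2 was 9.50-fold lower and Dusp5 at least 18.2-fold lower, while Dusp6, another of them, was 5.36-fold higher. At day 300 the same list had 3 higher and 3 lower against β-catenin day 3.

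The MYC network and the Id family each had members in both directions. Of 11 measured MYC, MAX and MXD genes, 1 was higher and 2 were lower. Myc gave 1276.4 at β-catenin day 3, 633.4 at eGFP day 3, 399.5 at DKmix day 50 and 641.4 at DKmix day 300 and was 3.19-fold lower, and Mycn was 3.49-fold lower. Mxd4, which competes with MYC for the partner MAX, gave 262.4 at β-catenin day 3, 1129.9 at eGFP day 3, 6560.8 at DKmix day 50 and 678.2 at DKmix day 300 and was 25-fold higher, with its 4 probe sets between 1.5 and 4.6 on the log2 scale. The day 50 value of Mxd4 was the highest of the 4 arrays and 5.81-fold higher than at eGFP day 3. Max and Mnt were within 2-fold. Of 7 Id and E protein genes, 3 were higher and 2 lower, and the median of 0.21 turned to −0.37 on the hybridisation-control scale. Id1, an inhibitor of E proteins, gave 697.2 at β-catenin day 3, 1106.4 at eGFP day 3, 4.9 at DKmix day 50 and 86.3 at DKmix day 300 and was at least 14.4-fold lower, opposite to Id2 at 23.7-fold higher. Id2 gave 215.5 at β-catenin day 3, 2160.0 at eGFP day 3, 5102.4 at DKmix day 50 and 2411.8 at DKmix day 300. Against eGFP day 3 it was 2.36-fold higher at day 50. Tcf4, a target factor of Id1, was 3.38-fold lower and Tcf12 was 2.73-fold higher. Of 6 RUNX factors and partners, 3 were higher: Runx1 was 2.21-fold higher, Runx3 2.37-fold higher and the corepressor gene Cbfa2t3 2.50-fold higher. On the hybridisation-control scale 0 were higher and 1 was lower, with a median of 0.04, and averaging probe sets left 1 higher. None of these 6 was 2-fold apart between day 300 and β-catenin day 3. Spi1, the factor PU.1 of myeloid cells, was 2.46-fold lower. In the ETS family list, 1 of 18 measured genes was higher and 4 were lower. The C/EBP genes Cebpb and Cebpd were 2.53-fold lower and 4.50-fold lower. The list of C/EBP and granulocyte factors held 11 measured genes, 2 higher and 5 lower, with log2 ratios from −2.45 to 2.92. Against both day 3 arrays, 1 of these 11 was higher and 3 were lower. Dbp, a clock-output factor, went from under the floor to 365.3.

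Of 26 measured genes that regulate or are targets of p53, 8 were higher and 1 lower, and the median was 0.28, which turned to −0.61 on the hybridisation-control scale. Sesn3, a stress-induced regulator of TOR signalling, was 8.77-fold higher, Gadd45g 7.18-fold higher and Ccng1, a cyclin G long known as a p53 target, 3.63-fold higher. Bbc3, the death gene PUMA, was 2.87-fold higher. Cdkn1a, the CDK inhibitor p21, went from 2732.1 to 2980.5 and Mdm2, the p53 ubiquitin ligase, from 509.1 to 649, both within 2-fold. Gadd45b was 3.34-fold lower. At day 300, 11 of 25 were higher and 5 lower.

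Because the cells carried β-catenin, Wnt pathway genes were read as a group of their own. Ctnnb1 was read by 3 probe sets with log2 ratios of 0.43, −0.62 and −0.53, none of them past 2-fold, and a probe set cannot separate retroviral from endogenous message without its position. Of 18 measured TCF/LEF factors and Wnt targets, 5 were higher and 5 lower, and the median of 0.14 turned to −0.74 on the hybridisation-control scale. Tiam1, an exchange factor for Rac that is a Wnt target in the gut, gave 415.9 at β-catenin day 3, 198.8 at eGFP day 3, 5556.9 at DKmix day 50 and 1348.5 at DKmix day 300 and was 13.4-fold higher. Axin2, the feedback target, was at least 5.95-fold higher at a day 50 value of 287.5. Bcl9l, a co-activator that binds β-catenin, was at least 3.57-fold lower, Ccnd1, the cyclin D1 gene, went from 337.8 to 169.8 and Lef1 stayed close to the floor at 43.4 to 62.9. Of 23 receptor and secreted-modulator genes, 3 were higher and none was lower: Fzd8 was at least 4.20-fold higher, Kremen1 at least 2.70-fold higher and Lrp6 2.03-fold higher. The highest day 50 value in that group was 202.7. In the destruction complex, Apc was 2.69-fold higher and the casein kinase gene Csnk1e 2.68-fold lower, while Gsk3b went from 516.8 to 592.9 and Axin1 from 329.8 to 175.9. Of the 24 measured Notch pathway genes, 8 were higher and 4 lower. Notch2 was 5.09-fold higher and its target Hes1 3.56-fold higher, but the median of the Notch list was −0.04 and its lowest log2 ratio −1.71. Against eGFP day 3, 4 of 25 Notch pathway genes were higher and 2 lower. On the hybridisation-control scale 3 of 22 were higher and 9 lower.

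Antigen presentation was lower at day 50 for both classes of MHC. Of 16 class I genes, 11 were lower and none was higher, with a median of −1.71, and all 16 had a ratio under 0. H2-K1, a classical class I heavy chain, gave 15697.4 at β-catenin day 3, 5571.2 at eGFP day 3, 4406.4 at DKmix day 50 and 7530.0 at DKmix day 300 and was 3.56-fold lower. The immunoproteasome subunits, which cut peptides for class I, were lower by more: Psmb8 gave 2639 at β-catenin day 3, 1087.9 at eGFP day 3, 374.4 at DKmix day 50 and 1641.7 at DKmix day 300 and was 7.05-fold lower, Psmb9 was 6.13-fold lower and Psmb10 5.66-fold lower. The peptide transporter genes Tap1 and Tap2 were 3.70-fold lower and 3.30-fold lower, and Nlrc5, the class I transactivator, was at least 6.06-fold lower. B2m, the light chain of class I, went from 12916.5 to 12340.8. Against eGFP day 3, 5 of 16 were lower, and the median was −0.58. At day 300, 4 of 16 were lower and 0 higher (median −0.39). The β-catenin day 3 array held the highest H2-K1 and Psmb8 values of the 4.

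Class II genes were lower in 12 of 17, with 1 higher. Of those measured, 8 of 14 were lower and 1 higher than at eGFP day 3 (median −1.29), and at day 300, 11 of 17 were lower and 0 higher (median −1.75). H2-Ab1, a class II β chain, gave 1903.2 at β-catenin day 3, 321.7 at eGFP day 3, 125.6 at DKmix day 50 and 241.8 at DKmix day 300 and was 15.2-fold lower. Cd86 and Cd40, co-stimulators of T cells, were at least 11.5-fold lower and 2.10-fold lower. With values under the floor set to it, day 50 was not below eGFP day 3 for either gene. H2-DMa, which exchanges peptides on class II, was at least 35.6-fold lower by its brightest probe set and had a log2 ratio of 0.6 by the other. Ciita, the class II transactivator, was close to the floor on both arrays (63.8 to 63.7), and Rfx5, which binds class II promoters, was 2.22-fold higher. The promoters of H2-Aa and H2-Eb1, among the 4 genes with the lowest ratios, are shown because class II genes share a Y box, whose core CTGATTGG was searched on both strands. Capitals mark it, and the sequences are the 250 bases before the start, from RefSeq on GRCm38.p6.
H2-Aa (chr17:34287824-34288073, minus strand): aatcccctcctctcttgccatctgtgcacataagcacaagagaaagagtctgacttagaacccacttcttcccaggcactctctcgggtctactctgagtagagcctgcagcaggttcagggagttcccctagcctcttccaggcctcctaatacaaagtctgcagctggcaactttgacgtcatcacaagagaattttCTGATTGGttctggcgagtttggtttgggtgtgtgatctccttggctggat
H2-Eb1 (chr17:34305617-34305866, plus strand): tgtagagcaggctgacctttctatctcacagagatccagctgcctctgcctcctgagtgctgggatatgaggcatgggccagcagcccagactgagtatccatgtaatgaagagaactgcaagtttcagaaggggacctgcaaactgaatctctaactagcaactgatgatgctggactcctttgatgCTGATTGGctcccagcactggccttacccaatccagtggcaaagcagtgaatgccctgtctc
The box lay 51 bases before the start in H2-Aa and 62 in H2-Eb1. It occurred in 5.5% of the promoters of measured genes, 5.9% of those of lower genes and 4.8% of those of higher genes.

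Interferon-stimulated genes were lower in 25 of 42 and higher in 1, with a median of −1.23. Ifitm3, a membrane protein that blocks virus entry, gave 3447.2 at β-catenin day 3, 1437.5 at eGFP day 3, 326 at DKmix day 50 and 11.6 at DKmix day 300 and was 10.6-fold lower. Its neighbour in the same family Ifitm1 was 2.11-fold higher, the single higher gene. The RNA sensor Ifih1 was at least 8.46-fold lower, and Oas2, which makes the activator of RNase L, was at least 5.97-fold lower. Of 8 interferon regulatory factors, 5 were lower: Irf4 was at least 4.26-fold lower and Irf7 3.26-fold lower, while Irf1 and Irf2 were within 2-fold. In the NF-κB group 8 of 17 were lower and 1 higher, but against the eGFP array 4 were lower and 3 higher, with a median of −0.07. At day 300, 4 of 17 were lower and 2 higher (median −0.35). Nfkbia, the inhibitor that NF-κB itself induces, went from 2431.2 to 812.3 (2.99-fold lower), Bcl3 was 5.03-fold lower, and Rela, the main activating subunit, went from 964.2 to 585.2. Against eGFP day 3 the interferon-stimulated list had 16 lower and 3 higher. The day 300 array had 27 of 42 lower than β-catenin day 3.

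Chemokine ligands had 12 of 18 lower, with a median of −2.01, and a single gene was higher. Of the ligands, 9 of 15 were lower and 1 higher than at eGFP day 3 (median −1.53), and at day 300, 12 of 18 were lower and 3 higher (median −2.02). The higher gene was Ccl2, which draws monocytes, at 44.7 at β-catenin day 3, 20.5 at eGFP day 3, 2785.5 at DKmix day 50 and 3909.2 at DKmix day 300 and at least 57.7-fold higher. Ccl9 gave 3068.2 at β-catenin day 3, 4111.4 at eGFP day 3, 34.2 at DKmix day 50 and 63.1 at DKmix day 300 and was at least 63.5-fold lower. Ccl17 and Ccl22, the ligands of CCR4 made by dendritic cells, were 12.4-fold lower and at least 16.6-fold lower, and their eGFP day 3 values were 282.5 and 85.1. Ccl6 was 15.6-fold lower and was highest on the eGFP array, at 5948.2. Il1b, the cytokine interleukin-1β, gave 1278.1 at β-catenin day 3, 129 at eGFP day 3, 6.4 at DKmix day 50 and 53.6 at DKmix day 300 and was at least 26.5-fold lower.

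Genes of neutrophils, macrophages and dendritic cells were lower. Of 35 macrophage and dendritic cell genes, 19 were lower and 2 higher. Csf1r, the receptor on which macrophages depend, gave 1999.5 at β-catenin day 3, 11797.6 at eGFP day 3, 121.1 at DKmix day 50 and 39.2 at DKmix day 300 and was 16.5-fold lower, with the eGFP array highest and both DKmix arrays lowest. Lyz2, a lysozyme of myeloid cells, gave 994.2 at β-catenin day 3, 14389.8 at eGFP day 3, 156 at DKmix day 50 and 35.1 at DKmix day 300 and was 6.37-fold lower. Ccr7, the receptor of migrating dendritic cells, gave 892 at β-catenin day 3, 5.6 at eGFP day 3, 65.2 at DKmix day 50 and 55.4 at DKmix day 300 and was 13.7-fold lower. Unlike Csf1r and Lyz2, Ccr7 was below the floor at eGFP day 3. The lectin receptors Clec4n, Clec4d and Clec4e were at least 23.4-fold lower, at least 18.4-fold lower and at least 15.4-fold lower. Fcgr3, an IgG receptor that mast cells also carry, was 3.18-fold higher.

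Neutrophil primary granule genes were lower in 6 of 9. Mpo, the peroxidase of azurophil granules, gave 2231.1 at β-catenin day 3, 4426.1 at eGFP day 3, 101.4 at DKmix day 50 and 16.9 at DKmix day 300 and was 22-fold lower. Elane, neutrophil elastase, was at least 5.48-fold lower and Ms4a3, a marker of granulocyte-monocyte progenitors, 13.3-fold lower. Serpinb1a and Cst7, protease inhibitors of leukocytes, were 5.58-fold higher and 3.19-fold higher. Of 20 secondary granule and surface genes, 13 were lower. S100a9, an abundant calcium-binding protein of neutrophils, gave 290.0 at β-catenin day 3, 28111.9 at eGFP day 3, 13.5 at DKmix day 50 and 25.3 at DKmix day 300, and Ngp, a granule protein, gave 99.5 at β-catenin day 3, 13424.2 at eGFP day 3, 11.8 at DKmix day 50 and 63.5 at DKmix day 300. Both were far above the other arrays at eGFP day 3, so the choice of the day 3 array set the size of their ratios: S100a9 was at least 6.00-fold lower than β-catenin day 3 and at least 582-fold lower than eGFP day 3. Cybb, the catalytic subunit of the phagocyte oxidase, was 14.4-fold lower.

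Genes of biosynthesis and growth formed the second broad set of lower groups. Of 59 ribosome biogenesis factors, 39 were lower and none was higher, with a median of −1.39. Nop56, a core protein of the box C/D particle that methylates rRNA, gave 3629.9 at β-catenin day 3, 3834 at eGFP day 3, 760.3 at DKmix day 50 and 731.6 at DKmix day 300 and was 4.77-fold lower, and its partners Nop58 and Fbl were 4.42-fold lower and 2.71-fold lower. Rrp1b was 6.24-fold lower, and Npm1, the abundant nucleolar chaperone, went from 9867.6 to 6187.7, within 2-fold. Mybbp1a, a nucleolar MYB-binding protein, gave 4610.6 at β-catenin day 3, 3527.6 at eGFP day 3, 1470.8 at DKmix day 50 and 536.7 at DKmix day 300 and was 3.13-fold lower. The DKmix values of Nop56 and Mybbp1a lay below both day 3 values. Against eGFP day 3, 23 of 59 were lower (median −0.74), and at day 300, 43 were lower and none was higher (median −1.56).

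Aminoacyl-tRNA synthetases, which charge tRNAs with amino acids, were lower in 15 of 21 with a median of −1.62. Gars gave 1664.2 at β-catenin day 3, 1061 at eGFP day 3, 360.1 at DKmix day 50 and 1062.6 at DKmix day 300 and was 4.62-fold lower, Kars was 4.35-fold lower and Yars 5.74-fold lower. Day 300 stood closer to β-catenin day 3 for these, with 4 lower and a median of −0.71. At day 50, 8 of 21 were lower and 0 higher than at eGFP day 3 (median −0.78). Serine and one-carbon genes, many of them targets of the amino acid response factor ATF4, were lower in 15 of 24 and higher in 3. The difference from the eGFP array was smaller: 7 of 23 were lower and 2 higher than at eGFP day 3 (median −0.47). At day 300, 10 of 24 were lower and 2 higher (median −0.67). Phgdh, the first enzyme of serine synthesis, gave 6657.1 at β-catenin day 3, 4136.8 at eGFP day 3, 181.8 at DKmix day 50 and 1242.4 at DKmix day 300 and was 36.6-fold lower, and all 4 of its probe sets had log2 ratios between −6.7 and −3.0. Psat1, the next step, was 4.87-fold lower, Mthfd2, of the mitochondrial folate cycle, 5.57-fold lower and Asns, asparagine synthetase, 6.58-fold lower. Atf4 itself was 2.17-fold lower, and its day 50 value of 1709.4 was close to the eGFP day 3 value of 1750.3. Ddit3, the stress factor CHOP that ATF4 induces, went against the group at 3.39-fold higher, as did Ddit4 at 2.32-fold higher.

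Of 22 nucleotide synthesis genes, 10 were lower and none was higher. Gart, which carries 3 steps of purine synthesis, gave 3012.4 at β-catenin day 3, 959.8 at eGFP day 3, 217 at DKmix day 50 and 743.3 at DKmix day 300 and was 13.9-fold lower, and its other measured probe sets had log2 ratios of −3.89 and −0.71. Pfas and Adsl, of the same pathway, were 4.49-fold lower and 3.47-fold lower, and Cad, which opens pyrimidine synthesis, was 2.47-fold lower. At day 50, 6 of 22 were lower and 0 higher than at eGFP day 3 (median −0.47), and at day 300, 10 of 21 were lower and 0 higher (median −0.90). Proteasome subunits were lower in 19 of 34, with a median of −1.12 and none higher. Psmc3, an ATPase of the regulatory cap, gave 2330.3 at β-catenin day 3, 1802.5 at eGFP day 3, 520.9 at DKmix day 50 and 1020.1 at DKmix day 300 and was 4.47-fold lower. The core subunits Psmb5 and Psmb6 were 2.33-fold lower and 2.42-fold lower, against a log2 ratio of 0.69 for Psmb3 by its brightest probe set and −1.27 by the other. Of the same subunits, 14 of 34 were lower and 0 higher than at eGFP day 3 (median −0.77), and at day 300, 9 of 34 were lower and 0 higher (median −0.74).

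The 2 kinds of ribosomal protein differed. Of 56 mitochondrial ribosomal proteins, 28 were lower and none was higher, with a median of −1.0. Mrpl12, which also binds the mitochondrial RNA polymerase, went from 2738.6 to 468.3 (5.85-fold lower) and Mrps10 from 859.1 to 149.2 (5.76-fold lower). Of these genes, 22 of 56 were lower and 0 higher than at eGFP day 3 (median −0.69), and at day 300, 23 of 56 were lower and 1 higher (median −0.90). Of 42 measured cytosolic ribosomal proteins, 5 were higher and 3 lower, and the median of 0.25 turned to −0.20 under quantile normalization, −0.13 under lowess centring and −0.69 on the hybridisation-control scale, so that list has no settled direction. Rpl38 went from 16953.3 to 40264.9 (2.38-fold higher) and Rpl8 from 16150.1 to 6730.7 (2.40-fold lower). Respiratory chain genes had no settled direction either: the median of 0.04 turned to −0.15 under quantile normalization, −0.19 under lowess centring and −0.90 on the hybridisation-control scale, with 8 of 58 higher and 8 lower. Ndufa1, of complex I, was 3.43-fold higher and Uqcrc1, of complex III, was 5.99-fold lower.

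DNA replication genes were lower in 25 of 46 and higher in none, with a median of −1.10. Mcm2, Mcm4 and Mcm7, subunits of the replicative helicase, were 4.78-fold lower, 3.16-fold lower and 2.66-fold lower. Pold2, a subunit of DNA polymerase δ, gave 767 at β-catenin day 3, 395.4 at eGFP day 3, 102.6 at DKmix day 50 and 457.8 at DKmix day 300 and was 7.48-fold lower. Rrm1, the large subunit of ribonucleotide reductase, was 4.36-fold lower while Rrm2 went from 1986.5 to 1839.8. Mitosis and spindle genes were lower in 24 of 48 and higher in 1. Aurka, the spindle pole kinase, gave 1633.8 at β-catenin day 3, 1831.4 at eGFP day 3, 343.1 at DKmix day 50 and 1023.6 at DKmix day 300 and was 4.76-fold lower. Top2a, which untangles chromosomes, gave 3334.4 at β-catenin day 3, 3371.4 at eGFP day 3, 1104.4 at DKmix day 50 and 3630.1 at DKmix day 300 and was 3.02-fold lower. Mki67, the proliferation antigen, gave 2257.8 at β-catenin day 3, 3434.9 at eGFP day 3, 1122.3 at DKmix day 50 and 2643.9 at DKmix day 300 and was 2.01-fold lower. In these 3 genes day 50 was the lowest of the 4 arrays. At day 300 the mitosis list had 6 higher and none lower against β-catenin day 3 (median 0.17), while the replication list still had 21 lower (median −0.90). Against eGFP day 3, 30 mitosis genes and 22 replication genes were lower at day 50.

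Glycolysis and hypoxia-response genes were lower in 12 of 33 and higher in 5. Pkm, pyruvate kinase, gave 8950.9 at β-catenin day 3, 3522.1 at eGFP day 3, 1571.7 at DKmix day 50 and 8816.2 at DKmix day 300 and was 5.70-fold lower. Tpi1, triose phosphate isomerase, gave 7092.8 at β-catenin day 3, 5389.2 at eGFP day 3, 1045.2 at DKmix day 50 and 9896.5 at DKmix day 300 and was 6.79-fold lower. Egln3, an oxygen-sensing hydroxylase that hypoxia induces, gave 686.1 at β-catenin day 3, 1856.4 at eGFP day 3, 54.7 at DKmix day 50 and 1525.9 at DKmix day 300 and was 12.5-fold lower. Day 50 was the lowest array for all 3. Ero1a, which drives disulfide formation in the endoplasmic reticulum, was 3.02-fold higher. At day 300 the list went the other way, with 15 of 34 higher than β-catenin day 3 and 2 lower (median 0.77). Car9, a carbonic anhydrase induced by hypoxia, went from 180.1 at β-catenin day 3 to 281.6 at day 50 and 6552.2 at day 300.

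**Figure D4:**
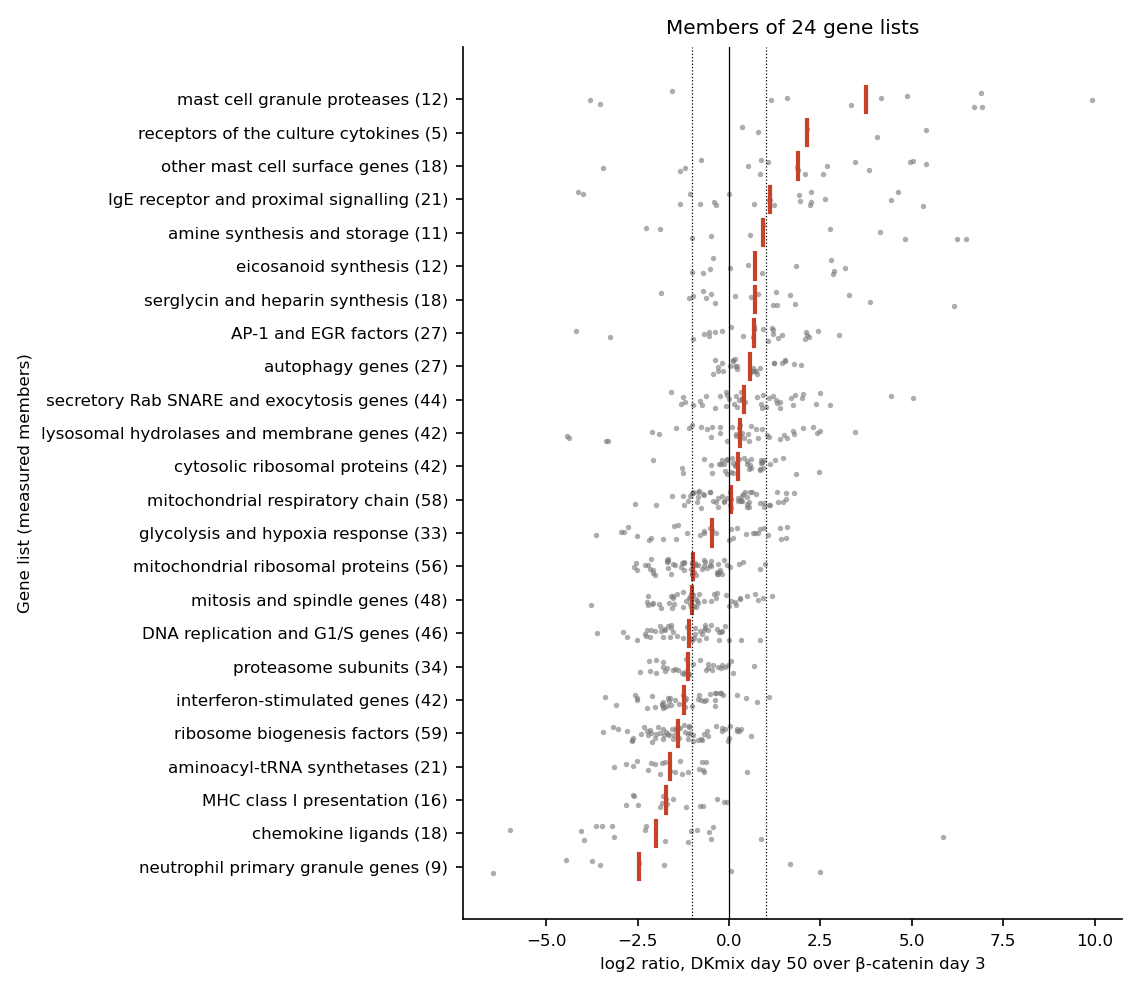
log2 ratio of DKmix day 50 over β-catenin day 3 for the measured members of 24 gene lists (grey points, 1 per gene; member counts in parentheses), with each list's median in red and dotted lines at 2-fold. The lists run from mast cell granule proteases (median 3.74) to neutrophil primary granule genes (median −2.45); on the hybridisation-control scale the medians from eicosanoid synthesis to mitochondrial respiratory chain turn to negative values, and those of cytosolic ribosomal proteins and the respiratory chain also under quantile normalization and lowess centring.

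Adhesion genes were lower in 9 of 27 and higher in 3. Itga2b, the platelet integrin chain that mast cell progenitors also carry, gave 1226.7 at β-catenin day 3, 595.1 at eGFP day 3, 6230.1 at DKmix day 50 and 5868.3 at DKmix day 300 and was 5.08-fold higher, and Itgb7, a chain of the integrin that brings mast cell progenitors to the gut, was 2.32-fold higher. Itgal and Itgb2, the chains of LFA-1, were 8.58-fold lower and 4.59-fold lower. Icam2, a ligand of LFA-1, was at least 18.2-fold lower. Among surface genes of stem and progenitor cells, Cd93 was 7.70-fold higher and Cd34 2.57-fold higher. Thy1 gave 2360.6 at β-catenin day 3, 1188.5 at eGFP day 3, 10.1 at DKmix day 50 and 3.7 at DKmix day 300 and was at least 48.9-fold lower, and Eng, a TGF-β co-receptor, was 4.79-fold lower.

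Several of the genes at the ends of the ranking belonged to none of these groups. Prnp, the prion protein gene, gave 338.3 at β-catenin day 3, 163.3 at eGFP day 3, 21622.8 at DKmix day 50 and 842.6 at DKmix day 300. The day 50 value was 63.9-fold higher than at β-catenin day 3 and far above the other 3 arrays. Igfbp5, a binding protein of insulin-like growth factors, gave 47.9 at β-catenin day 3, 2.8 at eGFP day 3, 7897.6 at DKmix day 50 and 2106.5 at DKmix day 300 and was at least 164-fold higher, while Igfbp4 of the same family gave 3004.5 at β-catenin day 3, 689.3 at eGFP day 3, 23.3 at DKmix day 50 and 3854.3 at DKmix day 300 and was at least 62.2-fold lower. The other Igfbp5 probe set had a log2 ratio of 2.10. Igfbp4 was below the floor at day 50 alone. Avil, which encodes the actin-binding protein advillin, gave 27.2 at β-catenin day 3, 37.5 at eGFP day 3, 5703.3 at DKmix day 50 and 4620.7 at DKmix day 300 and was at least 118-fold higher. Tgm2, tissue transglutaminase, gave 4466.7 at β-catenin day 3, 3844.1 at eGFP day 3, 70.6 at DKmix day 50 and 49.8 at DKmix day 300 and was 63.3-fold lower. Fut8, which adds core fucose to N-glycans, went from 3346.8 to 110.9 and was 30.2-fold lower. Alas1, the housekeeping enzyme of haem synthesis, gave 4445.3 at β-catenin day 3, 4843.6 at eGFP day 3, 171.2 at DKmix day 50 and 333.2 at DKmix day 300 and was 26.0-fold lower. App, the amyloid precursor gene, was at least 27.4-fold lower and below the floor on both DKmix arrays. Hmgn1, a nucleosome-binding protein, gave 3309.7 at β-catenin day 3, 1621.2 at eGFP day 3, 152.6 at DKmix day 50 and 4726.8 at DKmix day 300 and was 21.7-fold lower, and Anxa2, an annexin, gave 2145 at β-catenin day 3, 4946.7 at eGFP day 3, 77.2 at DKmix day 50 and 1489.8 at DKmix day 300 and was 27.8-fold lower. For Hmgn1, Anxa2 and Igfbp4 the day 300 value was within 2-fold of β-catenin day 3.

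Some genes named above had probe sets with log2 ratios of opposite sign, and the values given are those of the brightest. Besides those stated beside the gene, they were Apc, Arsb, Atf4, B2m, Ccnd1, Cdkn1a, Cebpd, Fut8, Gsk3b, Il6st, Kremen1, Prkcd, Ptgs2, Rab27a, Runx1, Runx3, Tap1, Tcf4, Tcf12 and Tnfrsf9. For Cdkn1a the other probe set had a log2 ratio of −1.62, and for Fut8 the others had 0.83 and −0.95.

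The lists were also read against both day 3 arrays at once, counting a gene only if day 50 was at least 2-fold above the higher or below the lower of them. By that rule 1382 of 14889 measured genes were higher (9.28%) and 1154 lower (7.75%). Mast cell proteases had 9 higher and 3 lower, and IgE receptor signalling had 11 and 3. Ribosome biogenesis had 22 lower, mitosis 23, replication 18, proteasome subunits 13, tRNA synthetases 8 and interferon-stimulated genes 15. MHC class I presentation had 5 lower and secondary granule genes 10. The higher rule took in 8 heparin synthesis genes and 5 amine genes.

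**Figure D5:**
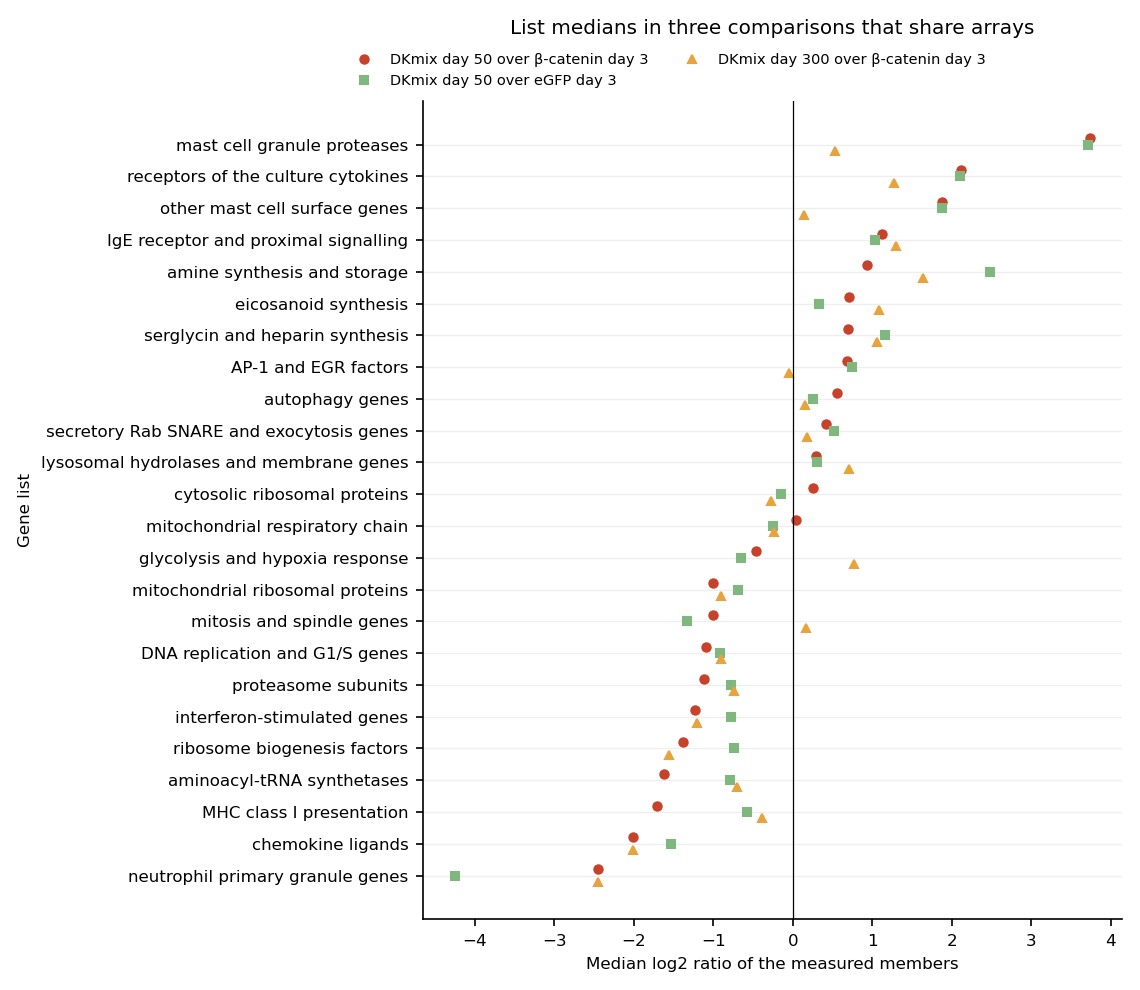
Median log2 ratio of the measured members of 24 gene lists in 3 comparisons that share arrays: DKmix day 50 over β-catenin day 3 (circles), DKmix day 50 over eGFP day 3 (squares) and DKmix day 300 over β-catenin day 3 (triangles). The glycolysis and mitosis lists have circles under 0 (medians −0.46 and −1.0) and triangles above it (0.77 and 0.17). On the hybridisation-control scale the circle medians from eicosanoid synthesis (0.71) to mitochondrial respiratory chain (0.04) turn to negative values.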

How the data were processed

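RNA of 4 mouse bone marrow cultures was measured on 1 oligonucleotide array each, and 2 of the arrays, DKmix day 50 and β-catenin day 3, form the comparison. The deposited values were linear signal intensities for 45101 probe sets, made by the authors with MAS5 per the submitters' processing notes, and their trimmed mean was 150.0 on every array. Array medians were 49.6, 50.2, 54.9 and 39.7. Its version, the detection calls and the genome build are not given in the sources used here.

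Probe sets took symbols from the platform's annotation: 34945 had 1, 932 had several and 9160 none in the table given, and 64 were controls. The probe set with the highest mean log2 over the 4 arrays stood for its gene. The floor was 48.3, and calls were made at 2-fold. The spread of the log2 ratio between probe sets of the same gene had an SD of 0.81 over 3580 genes. It leaves out differences between cultures and hybridisations. Among those genes, the brighter probe set was higher in 646. The second was also higher in 234 of them (36.2%) and had the same sign in 482 (74.6%). The brighter probe set was lower in 552 genes. The second was also lower in 203 of them (36.8%) and had the same sign in 394 (71.4%). Array number limits the precision. The 75 gene lists, the rule for named genes and the members were chosen with earlier results of these data known. Named genes were drawn from the 30 highest and 30 lowest ratios among genes reaching 193.2. Others came from the largest members of each list past 2-fold (up to 8 a direction). Members showing that a list was uneven or defining it, and Ctnnb1, were added. Not every gene that this rule could take is named in the text. Of 2042 list entries 1876 matched a gene; the others were not analysed here. The ratio, floor and call steps were tested on simulated data. Promoters are RefSeq's, 1 entry a gene. Tools were Python 3.11.15, pandas 2.3.3, statsmodels 0.14.6 for lowess centring and matplotlib 3.10.9. Alternatives were quantile normalization, lowess centring, a hybridisation-control scale, 2 other floors, 2 other probe set choices and a count against both day 3 arrays.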

Additional observations from a re-analysis of the deposited data

How the results depend on the processing

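Quantile normalization gave 2160 higher and 2172 lower genes, and lowess centring 1914 and 2328. The hybridisation-control scale gave 505 higher and 4548 lower, so that 10.0% of the called genes were higher against 50.5% on the deposited scale. A floor of 11 gave 4472 higher and 4192 lower genes, and a floor of 134.6 gave 1129 and 1271. Averaging a gene's probe sets gave 1366 higher genes and 1565 lower, and probe sets without suffix letters 1864 and 1916. Counting against both day 3 arrays gave 1382 and 1154. The sign of a list's median turned in 26 of 75 lists on the hybridisation-control scale, in 3 under quantile normalization and in 3 under lowess centring. Of the 798 genes that the naming rule could take, the sign turned in 13 with averaged probe sets. Probe sets without suffix letters did not give a measured value for all of them, and there the sign turned in 24. Of the genes whose sign turned, the text names Ctse, which turned to 0.83 without suffix letters. More genes fell under the call threshold without turning sign. They were 205 with averaged probe sets, 277 against both day 3 arrays and 166 on the hybridisation-control scale. Quantile normalization had 43 such genes, lowess centring 45 and probe sets without suffix letters 33. The floor of 134.6 had 119, although not all 798 genes were measured there, and the floor of 11 had 0. The single array on each side is the main limit, and the floor limits the ratio of 4592 genes to a bound. No paired analysis was possible because each group held 1 array and the labels give no replicate numbers.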
